A study of Homo sapiens with 8 samples.

Results

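Glycolysis and hypoxia-response genes were followed as a set of 33 genes among the 25192 gene symbols that the authors quantified. Members were taken by gene name according to their known roles, by a rule that uses no measured value, although the set was proposed with earlier results of these data in view. It holds 24 transporters and enzymes that carry glucose to lactate and 9 further genes that cells switch on when oxygen is low. The libraries came from HT29 and SW480, human colorectal cancer cell lines with truncated APC, cultured with 10% fetal bovine serum, HT29 in McCoy's 5A and SW480 in RPMI1840. In each line, 2 libraries came from cells given control siRNA (siCon) and 2 from cells given PRDX2 siRNA (siPrdx2) for 36 h. PRDX2 encodes peroxiredoxin II (PrxII), a cytosolic enzyme that removes hydrogen peroxide. All groups were therefore transfected, and no untransfected cells, second control siRNA or low-oxygen culture entered the comparisons. The labels describe the experiments as duplicates without saying whether these were separate transfections, so that the p-values measure the spread between these libraries, which may be technical.

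In glycolysis, glucose enters through GLUT transporters, is trapped by hexokinase, is split into triose phosphates and is oxidized to pyruvate, which lactate dehydrogenase reduces to lactate for export by MCT transporters. Tumour cells, those of the colon included, often run this route even with oxygen present. When oxygen falls, the prolyl hydroxylases EGLN1 and EGLN3 no longer mark the HIF transcription factors for VHL-mediated destruction, and HIF then induces many glycolytic genes together with CA9, BNIP3, ANKRD37 and others. Several glycolytic genes are also known targets of MYC.

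PRDX2 itself checked the labels. In HT29 it went from 148 and 154 CPM (counts scaled by edgeR to library size) with control siRNA to 82.4 and 83.2 CPM with PRDX2 siRNA, and in SW480 from 209 and 246 to 69.5 and 70.7 CPM. These are log2 fold changes of -0.87 (SE 0.05, adjusted p = 1.15e-09) and -1.70 (SE 0.12, adjusted p = 6.18e-04, edgeR's quasi-likelihood test, adjusted by Benjamini-Hochberg over all genes). The expected counts summed to 8857442 to 10164137 per library, so that 3 counts stood at 0.295 to 0.339 CPM. All 11 colorectal epithelial markers reached 1 TPM in HT29 and 8 of 11 did in SW480, while the 6 fibroblast, 3 endothelial and 6 leukocyte markers summed to at most 12.4, 1.96 and 9.22 TPM in any library, with PTPRC, MS4A1 and DCN listed at 0 throughout. The leukocyte sum, in which 1 of 6 genes reached 1 TPM, went from 9.14 and 9.22 to 7.07 and 7.43 TPM in HT29 and from 3.33 and 4.42 to 6.45 and 6.73 TPM in SW480 with PRDX2 siRNA.

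The SW480 control duplicates stood apart from each other more than any other pair. Over all genes tested the median absolute gap between them was 0.24 on the log2 scale, against 0.08 between the HT29 control duplicates. It tracked transcript GC content. Library 1 minus library 2 gave a Spearman's rho of -0.73 with GC content over all genes and of -0.76 over the 32 members tested, which come from 1 pair of libraries and are not independent. All 8 members with a transcript GC content under 45% were higher in control library 1, and 8 of the 10 members over 55% were higher in control library 2. SLC16A3 read 173 and 253 CPM, PFKL 98.8 and 138 CPM and PFKP 73.3 and 105 CPM in these 2 libraries. Over the 32 members, the median absolute gap was 0.135 against a median absolute effect of the siRNA of 0.24. The gap was larger than the effect for 10 of them. For the SW480 members named by the test or by effect size, fold changes without each control library are given after those of the full fit.

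**Figure D1:**
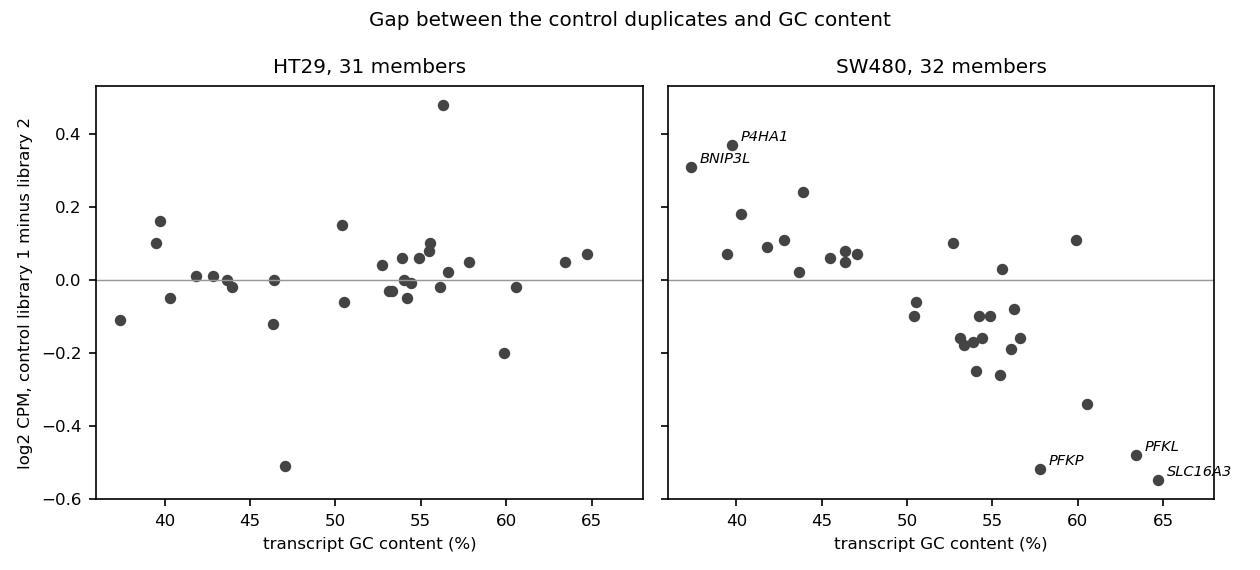
Gap between the 2 control libraries (log2 CPM of library 1 minus library 2, vertical axis) against transcript GC content in percent (horizontal axis) for each member tested in HT29 (left, 31 points) and SW480 (right, 32 points). In SW480 the points fall from about BNIP3L and P4HA1 at the upper left to SLC16A3 and PFKL at the lower right, and in HT29 they show no such slope (rho 0.17).

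The promoters of the members were read from RefSeq (GRCh38.p14), as windows of 300 bases from 250 before to 50 after each annotated start. Windows were found for 29 of the 33 members, 56 windows in all. The core of the hypoxia response element is ACGTG or GCGTG, and CACGTG, which contains the former on both strands, is also the E-box that MYC-family proteins bind. ACGTG on either strand lay in 41.1% of the member windows and in 21.4% of all 35116 windows, and CACGTG in 14.3% against 7.26%. The member windows were also richer in GC (median 68.8% against 58.7%), and the shares were not matched for it. A match says only that the letters occur. The windows of 4 members are shown, since LDHA was lower in both lines, GAPDH was the most abundant member, CA9 differed most in level between lines among the members detected in both, and BNIP3 was next to absent in all libraries. Capitals mark ACGTG on either strand.
LDHA, chr11:18394313-18394612, plus strand: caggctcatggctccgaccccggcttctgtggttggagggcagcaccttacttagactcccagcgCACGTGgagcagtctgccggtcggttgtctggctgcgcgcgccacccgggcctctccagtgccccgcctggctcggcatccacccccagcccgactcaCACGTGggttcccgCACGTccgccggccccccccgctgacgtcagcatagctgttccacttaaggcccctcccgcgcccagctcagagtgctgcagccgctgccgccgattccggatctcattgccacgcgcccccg
GAPDH, chr12:6535014-6535313, plus strand: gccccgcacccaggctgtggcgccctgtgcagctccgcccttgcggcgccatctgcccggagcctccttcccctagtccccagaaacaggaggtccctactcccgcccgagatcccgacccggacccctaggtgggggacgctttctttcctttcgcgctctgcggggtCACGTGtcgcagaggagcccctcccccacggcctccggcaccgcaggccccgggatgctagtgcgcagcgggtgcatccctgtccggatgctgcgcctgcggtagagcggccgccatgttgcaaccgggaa
CA9, chr9:35673678-35673977, plus strand: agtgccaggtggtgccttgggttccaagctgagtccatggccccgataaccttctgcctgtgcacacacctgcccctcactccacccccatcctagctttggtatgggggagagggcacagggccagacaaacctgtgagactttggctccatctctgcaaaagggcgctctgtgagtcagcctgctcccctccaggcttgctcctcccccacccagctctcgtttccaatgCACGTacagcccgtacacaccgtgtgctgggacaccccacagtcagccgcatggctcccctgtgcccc
BNIP3, chr10:131981874-131982173, minus strand: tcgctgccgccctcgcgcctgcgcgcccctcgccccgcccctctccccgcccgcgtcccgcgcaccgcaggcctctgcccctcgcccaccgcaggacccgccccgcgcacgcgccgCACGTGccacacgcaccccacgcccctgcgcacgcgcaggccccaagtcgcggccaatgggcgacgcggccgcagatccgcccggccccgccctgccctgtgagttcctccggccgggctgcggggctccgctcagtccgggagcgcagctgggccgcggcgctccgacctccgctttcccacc
The LDHA window, the upstream one of 2 annotated for the gene, holds 3 marked stretches that begin 185, 87 and 73 bases before the start, and 2 of them are CACGTG. GAPDH and BNIP3 each hold 1 CACGTG, and CA9 holds 1 stretch that begins 18 bases before the start. The windows differ in the dinucleotide CG, with 48 in BNIP3, more than in 98.0% of all windows, 29 in LDHA and 7 in CA9. The median was 14 over all windows and 28 over the member windows. A high number was not particular to BNIP3, since a window of SLC16A3, which was detected in both lines, held 51.

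The members were an abundant set, at 1.37% to 1.99% of all TPM (a level that RSEM divides by transcript length, so that genes can be compared within a library). GAPDH, the enzyme that oxidizes glyceraldehyde-3-phosphate, was the highest in both lines at 4437 and 4506 TPM in the HT29 control libraries and 5493 and 6194 TPM in those of SW480. In HT29 it was followed by LDHB, the lactate dehydrogenase subunit typical of heart (mean 1705 TPM), the enolase ENO1 (1672), pyruvate kinase PKM (1474), aldolase ALDOA (1148) and the triose isomerase TPI1 (1025). In SW480 the order after GAPDH was ENO1 (1951), LDHB (1802), TPI1 (1339), PKM (1208), LDHA (1202) and SLC2A3 (1185), and the last 3 lay closer together than their duplicates. The 5 highest members held 62.4% to 70.1% of the set's TPM in each library. BNIP3, a mitophagy receptor and a classic hypoxia target, gave 0 to 2 counts in each of the 8 libraries, at or under the 3 counts that a count of 0 allows. These limits cover counting error only. Its relative BNIP3L was detected in both lines.

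**Figure D2:**
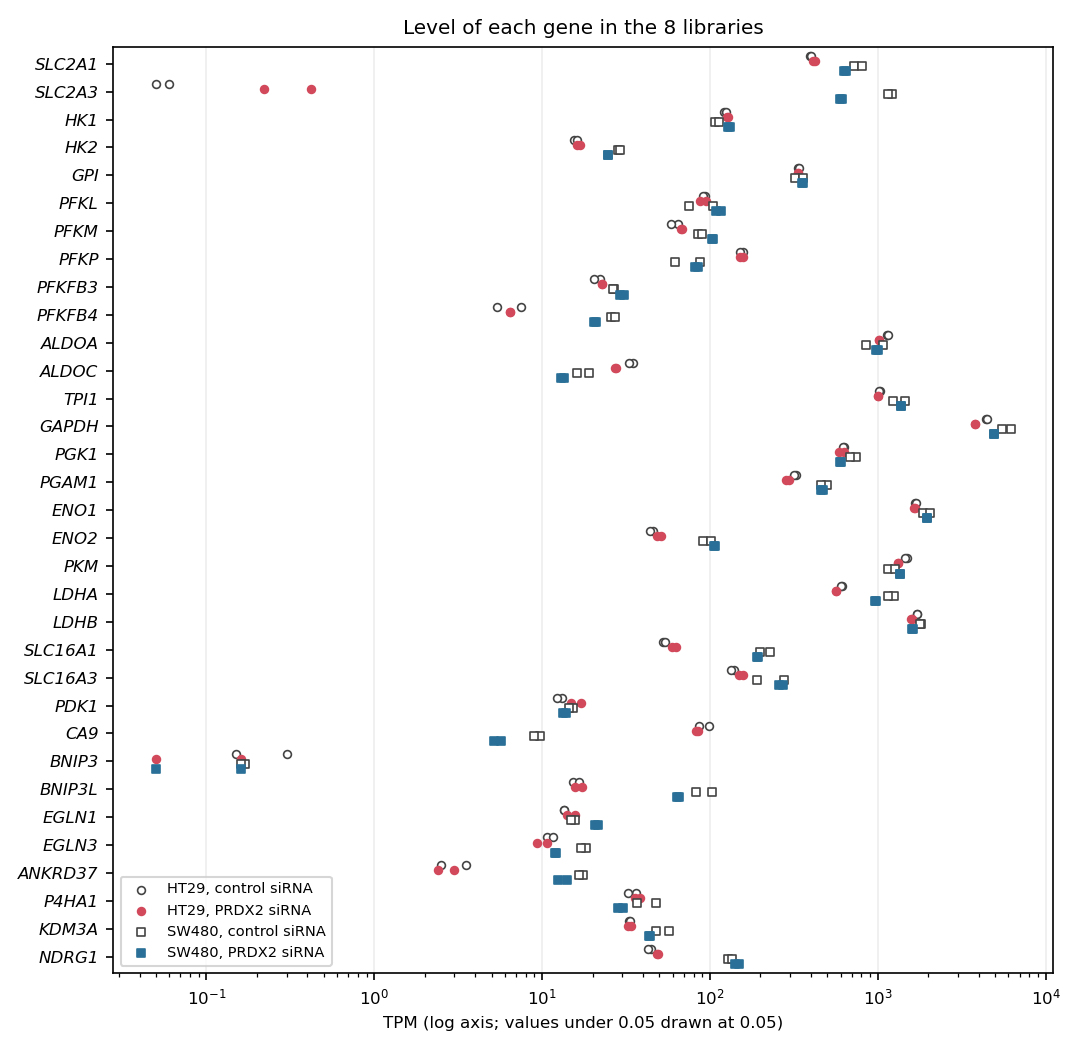
TPM of each of the 33 members (log axis) in the 8 libraries, with open symbols for control siRNA, filled symbols for PRDX2 siRNA, circles for HT29 and squares for SW480. GAPDH lies highest, BNIP3 lies under 1 TPM in all libraries, and SLC2A3 lies at 595 to 1217 TPM in SW480 and under 1 TPM in HT29.

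The lines differed in the proportions of isoforms of the same step, with shares that lay closer between duplicates than between lines at the 4 steps below. SLC2A3, which encodes the neuronal-type high-affinity transporter GLUT3, gave 1 and 0 counts in the HT29 control libraries and 4 and 7 with PRDX2 siRNA, against 18716 and 19373 and then 9963 and 9882 counts in SW480. GLUT1, encoded by SLC2A1, thus made up 99.9% to 100% of the TPM of GLUT1 and GLUT3 in HT29 and 37.3% and 41.3% in the SW480 control libraries. The platelet-type phosphofructokinase PFKP held 49.7% and 50.3% of phosphofructokinase TPM in the HT29 control libraries and 27.7% and 31.1% in those of SW480. LDHA, the muscle-type lactate dehydrogenase subunit, held 26.3% and 26.2% of the LDHA and LDHB total in HT29 and 40.6% and 39.4% in SW480. HK2, the inducible hexokinase, held 11.4% and 11.5% of the HK1 and HK2 total in HT29 and 20.8% and 20.4% in SW480. That total leaves out the hexokinase-like HKDC1, with a control mean of 38.8 TPM in HT29 and 2.62 TPM in SW480, against 15.9 and 28.8 TPM for HK2.

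In HT29 cells, PrxII depletion was followed by a small decrease of the abundant enzymes of the payoff phase and of lactate formation. GAPDH fell by 18.5%, PKM by 13.8%, PGAM1 by 13.2% and LDHA by 11.5%, while the log2 fold changes of the glucose transporter gene SLC2A1 and the hexokinase genes HK1 and HK2 were 0.01, -0.02 and -0.01. Of the 31 members tested, 12 had an adjusted p under 0.05 with edgeR (38.7%, against 17.6% of all 12961 genes tested). There were 11 lower members (35.5%, against 9.82% of all genes) and 1 higher member (3.23%, against 7.76%). Both siPrdx2 libraries lay below both control libraries for 15 members (48.4%, against 28.7% of all genes) and above them for 6 (19.4%, against 28.3%). The median log2 fold change was -0.07 over the members and -0.00048 over all genes, and the median absolute change was 0.09 against 0.12. On the TPM scale, tested with limma, the same medians were 0.0077 and 0.06, so that the sign of the members' median turned while it stayed below that of all genes. The members tested had a median level of 101.2 CPM against 34.0 CPM over all genes tested, and its part in the count of calls was not tested. SLC2A3 and BNIP3 were not tested in HT29, since they had under 10 counts. RNA was taken from whole cultures, where less RNA per cell and fewer cells that express a gene cannot be told apart.

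By position in the pathway, 5 of the 6 genes from GAPDH to PKM were lower in HT29 (against 9.82% of all genes). GAPDH read 2764 and 2810 CPM with control siRNA and 2263 and 2281 CPM with PRDX2 siRNA. The groups did not overlap, and the log2 fold change was -0.30 (SE 0.01, 95% interval -0.32 to -0.27, adjusted p = 8.34e-11 with edgeR). PKM, which makes pyruvate and the second ATP of the payoff phase, read 1702 and 1677 and then 1452 and 1462 CPM (-0.21, SE 0.02, adjusted p = 4.79e-08 with edgeR). The mutase gene PGAM1 read 253 and 246 and then 213 and 221 CPM (-0.20, SE 0.04), though reads of its near-identical copy PGAM4, with 77 to 130 counts per library, may be shared with it. The kinase gene PGK1 read 697 and 691 and then 664 and 625 CPM (-0.11, SE 0.03), and ENO1 read 1666 and 1684 and then 1572 and 1602 CPM (-0.08, SE 0.02). PGK1 thus fell by 7.1% and ENO1 fell by 5.27%. ENO2, the neuronal enolase, did not pass at 0.07 (interval -0.06 to 0.21).

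Upstream of these, 3 of 9 members were lower (against 9.82% of all genes). ALDOA read 823 and 832 CPM and then 704 and 707 CPM (-0.23, SE 0.02, adjusted p = 6.31e-07 with edgeR). Its brain-type isoform ALDOC read 26.0 and 24.6 and then 19.4 and 19.8 CPM, the lowest log2 fold change of the HT29 members at -0.37 (SE 0.10, adjusted p = 0.0122 with edgeR). TPI1 read 625 and 624 and then 586 and 589 CPM (-0.09, SE 0.02). The isomerase GPI and the phosphofructokinase genes PFKL, PFKM and PFKP did not pass the test, with log2 fold changes between -0.09 and 0.08, nor did PFKFB3 and PFKFB4, which make and break the allosteric activator fructose-2,6-bisphosphate. SLC2A1 read 665 and 678 and then 668 and 685 CPM, with a 95% interval of -0.04 to 0.06 for the log2 fold change.

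At the end of the pathway, LDHA read 615 and 613 CPM with control siRNA and 540 and 547 CPM with PRDX2 siRNA (-0.18, SE 0.02, adjusted p = 5.39e-05 with edgeR). LDHB read 1010 and 1010 and then 897 and 913 CPM (-0.16, SE 0.02, adjusted p = 1.85e-05 with edgeR). Both subunits fell together, and the LDHA share of the total moved only from 26.3% and 26.2% to 26.1% and 26.0%. The lactate exporters MCT1 (SLC16A1, 0.13, SE 0.05) and MCT4 (SLC16A3, 0.10, SE 0.05) did not pass the test (adjusted p = 0.0755 and 0.199 with edgeR). SLC16A1 did pass with the replicate number as a block (adjusted p = 0.0480), and SLC16A3 with a GC correction (0.0349, both edgeR). PDK1, the kinase that shuts pyruvate dehydrogenase and a known HIF target, was the 1 member called higher by the main edgeR test. It went from 27.8 and 26.0 to 34.7 and 30.2 CPM (0.27, SE 0.09, adjusted p = 0.0436 with edgeR).

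Of the 8 hypoxia-response members tested in HT29, 1 was lower (against 9.82% of all genes) and 0 were higher (against 7.76%), counts near the shares of all genes. CA9, a membrane carbonic anhydrase that is induced by HIF and buffers the pH outside the cell, read 60.8 and 69.9 CPM and then 57.1 and 55.7 CPM (-0.21, SE 0.07, adjusted p = 0.0386 with edgeR). The 7 others, BNIP3L, EGLN1, EGLN3, ANKRD37, the collagen prolyl hydroxylase P4HA1, the histone demethylase KDM3A and the stress-response gene NDRG1, lay between -0.22 and 0.09. ANKRD37 was near the detection limit at 0.95 to 1.46 CPM, with an interval of -1.12 to 0.68.

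Leaving out each HT29 library in turn kept the calls of ALDOA, GAPDH, PGAM1, PKM, LDHA and LDHB. The other 6 calls were lost in at least 1 of these fits. Without siPrdx2 library 1, which left 7 calls in all, PDK1 was at 0.17 (adjusted p = 0.353), ALDOC at -0.35 (0.0653), TPI1 at -0.08 (0.101), ENO1 at -0.06 (0.1005) and CA9 at -0.23 (0.0904, all edgeR). Without control library 1, ALDOC was at -0.33, and without control library 2, CA9 was at -0.11 and PDK1 at 0.23. Without siPrdx2 library 2, PGK1 was at -0.06, CA9 at -0.19 and TPI1 at -0.09. With limma on the TPM scale, TPI1, PGK1 and ENO1 were not called at -0.02, -0.04 and -0.01.

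In SW480 cells, PrxII depletion was followed by a drop of SLC2A3, the gene of GLUT3. On the TPM scale SLC2A3 went from 1217 and 1154 to 611 and 595, and SLC2A1 ended next to it at 648 and 633. In CPM, SLC2A3 read 2164 and 2069 CPM with control siRNA and 1024 and 999 CPM with PRDX2 siRNA, a decrease of 52.2% with no overlap of the groups. The log2 fold change was -1.06 (SE 0.07, 95% interval -1.23 to -0.90, adjusted p = 6.18e-04 with edgeR), and it was -1.03 without control library 1 and -1.10 without control library 2. The near-identical gene SLC2A14 had 51.1 and 58.2 and then 15.1 and 31.1 expected counts in the same libraries, far fewer than SLC2A3 lost. SLC2A1 read 1196 and 1354 and then 1011 and 988 CPM (-0.35, SE 0.09, adjusted p = 0.0626 with edgeR), lower in both siPrdx2 libraries without passing the test. The summed TPM of GLUT1 and GLUT3 was 1939 and 1965 with control siRNA and 1259 and 1228 with PRDX2 siRNA, and the GLUT1 share of it moved from 37.3% and 41.3% to 51.5% and 51.5%.

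In all, 3 of the 32 members tested in SW480 had an adjusted p under 0.05 (9.38%, against 3.30% of all 14112 genes tested). All 3 were lower (against 2.08% of all genes), and 0 were higher (against 1.22%), with 1 higher at an unadjusted p under 0.05 and 0 with DESeq2 or limma. Groups did not overlap for 18 lower members (56.3%, against 29.0% of all genes) and 4 higher members (12.5%, against 29.6%). The median log2 fold change was -0.23 over the members and 0.0022 over all genes, while the median absolute change was 0.24 against 0.22. The members tested had a median level of 160.6 CPM against 31.3 CPM over all genes tested, and its part in the count of calls was not tested. The biological coefficient of variation was 0.0993 in SW480 and 0.0249 in HT29, and in simulated counts with these spreads, edgeR recovered 27% of changes of 0.5 on the log2 scale in SW480 and 80% in HT29.

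LDHA read 1228 and 1152 CPM with control siRNA and 914 and 899 CPM with PRDX2 siRNA (-0.39, SE 0.08, adjusted p = 0.0384 with edgeR). It was called lower in both lines, although not in SW480 with limma (-0.30, adjusted p = 0.109 at a pseudocount of 1). Among the other enzymes, GAPDH read 3332 and 3800 and then 2847 and 2849 CPM (-0.32, SE 0.07, adjusted p = 0.0519, and 0.0459 under RLE normalization), PGK1 806 and 746 and then 614 and 613 CPM (-0.34, SE 0.09, adjusted p = 0.0695), and neither passed the edgeR test as fitted with TMM. The same held for HK2, at 91.3 and 94.9 and then 74.5 and 74.8 CPM (-0.32, SE 0.11), for PFKFB4, at 40.7 and 43.0 and then 31.1 and 30.3 CPM (-0.45, SE 0.13), and for ALDOC, at 11.8 and 14.1 and then 8.94 and 9.30 CPM (-0.51, SE 0.18). These genes had siPrdx2 libraries below both control libraries. PKM, which was lower in HT29, overlapped between the groups in SW480 at 0.07 (interval -0.11 to 0.26), as did ALDOA at -0.04, TPI1 at -0.05 and ENO1 at -0.08.

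The hypoxia-response members had a median log2 fold change of -0.53 in SW480, over the 8 tested. BNIP3L, a receptor that marks mitochondria for autophagy and is best known from maturing red cells, read 162 and 131 CPM with control siRNA and 94.5 and 97.4 CPM with PRDX2 siRNA (-0.61, SE 0.13, adjusted p = 0.0395 with edgeR). It was the 1 of the 8 that passed (against 3.30% of all genes). CA9 read 6.71 and 6.19 and then 3.70 and 3.34 CPM (-0.87, SE 0.22, adjusted p = 0.0679), from 58 and 58 down to 36 and 33 counts. EGLN3 read 22.2 and 21.0 and then 13.7 and 13.9 CPM (-0.65, SE 0.16, adjusted p = 0.0590), and P4HA1 61.0 and 47.2 and then 36.6 and 34.2 CPM (-0.61, SE 0.15, adjusted p = 0.0614, edgeR). KDM3A read 120 and 101.7 and then 86.8 and 86.5 CPM (-0.35, SE 0.12), and ANKRD37 7.05 and 6.73 and then 4.73 and 5.36 CPM (-0.45, SE 0.21). EGLN1, the main oxygen-sensing hydroxylase, stood the other way at 50.4 and 48.6 and then 65.8 and 62.7 CPM (0.38, SE 0.12, adjusted p = 0.106 with edgeR). None of these groups overlapped, and NDRG1 did overlap at 0.05 (interval -0.19 to 0.30).

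The number of SW480 calls depended on the control libraries, and 7 of the 32 members changed sign between the fits without control library 1 and without control library 2. Without control library 1, 21 members were called (20 lower and 1 higher, with 24.6% of all genes called), and without control library 2, 25 were called (15 lower and 10 higher, with 52.8% of all genes). In these fits the lone control library was assumed to vary like the siPrdx2 pair. The part of the members' higher median level in these counts was not tested. The members called lower against either control library were 14 of 32 (43.8%, against 10.1% of all genes), namely SLC2A1, SLC2A3, HK2, PFKFB4, GAPDH, PGK1, LDHA, LDHB, SLC16A1, CA9, BNIP3L, EGLN3, P4HA1 and KDM3A, and EGLN1 was called higher against either. PFKP, ALDOA and TPI1 were called in opposite directions, ALDOA at -0.21 without library 1 and 0.13 without library 2 and TPI1 at -0.17 and 0.08. PKM lay at -0.01 and 0.15. Without control library 1 and without control library 2, respectively, the log2 fold change was -0.35 and -0.44 for LDHA, -0.42 and -0.23 for GAPDH, -0.28 and -0.40 for PGK1, -0.44 and -0.26 for SLC2A1 and -0.35 and -0.30 for HK2. It was -0.49 and -0.41 for PFKFB4 and -0.63 and -0.38 for ALDOC. For the hypoxia-response members it was -0.45 and -0.76 for BNIP3L, -0.82 and -0.93 for CA9, -0.61 and -0.69 for EGLN3, -0.42 and -0.79 for P4HA1, -0.23 and -0.48 for KDM3A, -0.42 and -0.49 for ANKRD37 and 0.40 and 0.34 for EGLN1. BNIP3L, P4HA1 and KDM3A thus moved by over 1.5 times with the choice of control library, as did GAPDH, SLC2A1 and ALDOC in the other direction. When a loess curve on GC content was removed from each library, 16 members were called (15 lower and 1 higher, with 17.0% of all genes), among them GAPDH at -0.44, CA9 at -1.07, LDHA at -0.23, BNIP3L at -0.35 and PGK1 at -0.19. Without siPrdx2 library 1 or 2, only SLC2A3 was called, and LDHA lay at -0.40 and -0.38 and BNIP3L at -0.58 and -0.63.

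The difference of effects between lines was called for 0 of the 31 members tested in both lines with edgeR, and likewise with DESeq2 and limma. At an unadjusted p under 0.05 there were 13 of the 31 (41.9%, against 19.2% of all 14772 genes tested). Over all genes 1.12% were called. SLC2A3 was also called, but it entered this fit only through its SW480 counts, with 1, 0, 4 and 7 counts in HT29, and is not read as a difference of effects. The difference, HT29 minus SW480, was 0.36 for SLC2A1 (SE 0.09, 95% interval 0.16 to 0.56, adjusted p = 0.0782 with edgeR), 0.66 for P4HA1 (SE 0.18, 0.28 to 1.05), 0.60 for BNIP3L (SE 0.16, 0.24 to 0.96) and -0.29 for PKM (SE 0.08, -0.46 to -0.11). For GAPDH the difference was 0.03 (-0.14 to 0.20) and for ENO1 it was 0.00 (-0.17 to 0.17), intervals too wide to show equal effects. GAPDH stood at -0.30 in HT29. In SW480 it stood at -0.42 without control library 1 and at -0.23 without control library 2. The fall of LDHA differed by 0.22 (0.05 to 0.39), with an adjusted p of 0.173 with edgeR. Of the 31 members tested in both lines, 17 had a log2 fold change under 0 in both. By line, 21 of 31 were under 0 in HT29 (against 50.1% of all genes) and 22 of 32 in SW480 (against 49.8%). Whether the 2 lines moved together was not tested.

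**Figure D3:**
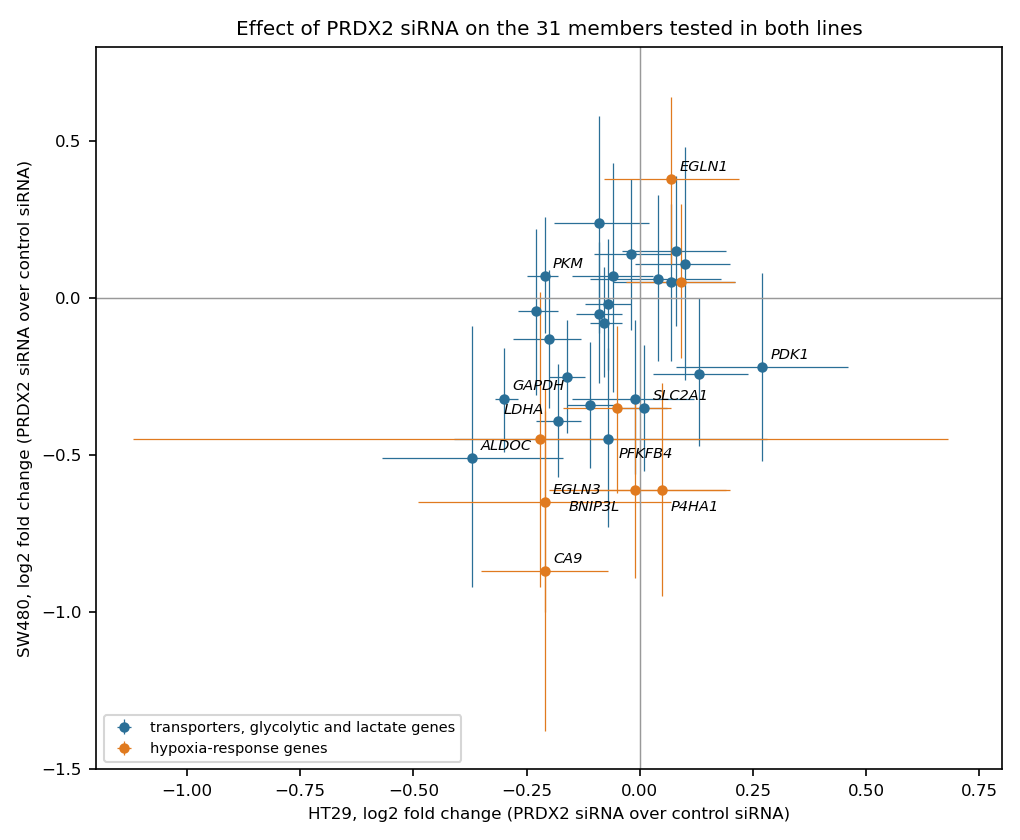
Log2 fold change of PRDX2 siRNA over control siRNA in HT29 (horizontal axis) and SW480 (vertical axis) with 95% intervals for the 31 members tested in both lines, glycolytic and lactate genes in blue and hypoxia-response genes in orange. GAPDH, LDHA, ALDOC and CA9 lie below 0 on both axes, while BNIP3L, P4HA1 and SLC2A1 lie near 0 in HT29 and below it in SW480.

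With control siRNA alone, the lines differed at 22 of 32 members (68.8%), a share near the 67.5% of all 14346 genes called. Line, medium and any batch cannot be told apart here. Of these, 6 were higher in HT29 (18.8%, against 31.8% of all genes) and 16 were lower in HT29 (against 35.7%). CA9 was at 62.2 and 71.3 CPM in HT29 and 6.39 and 5.91 CPM in SW480 (log2 difference 3.44, SE 0.16, adjusted p = 3.65e-07 with edgeR). PFKP (1.17), ALDOC (1.06), PKM (0.42), ALDOA (0.37) and HK1 (0.28) were also higher in HT29. The largest differences the other way, SLC2A3 apart, were BNIP3L (25.3 and 27.2 CPM in HT29 and 154 and 125 in SW480, log2 difference -2.41, SE 0.14), ANKRD37 (-2.36), PFKFB4 (-1.91), SLC16A1 (-1.88) and NDRG1 (-1.46). ENO2 (-0.97), LDHA (-0.86), SLC2A1 (-0.83), HK2 (-0.73), SLC16A3 (-0.64), EGLN3 (-0.54), KDM3A (-0.53), PGAM1 (-0.46), PFKM (-0.38) and GAPDH (-0.26) were lower in HT29 as well. Hypoxia-response members thus did not share 1 direction, since CA9 was higher and BNIP3L, ANKRD37, NDRG1, EGLN3 and KDM3A were lower in HT29. Without 1 HT29 control library, 14 members were called instead of 22, and ALDOA, HK1, GAPDH, PGAM1, PFKM, PKM, EGLN3 and KDM3A lost their calls with log2 differences of the same sign.

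**Figure D4:**
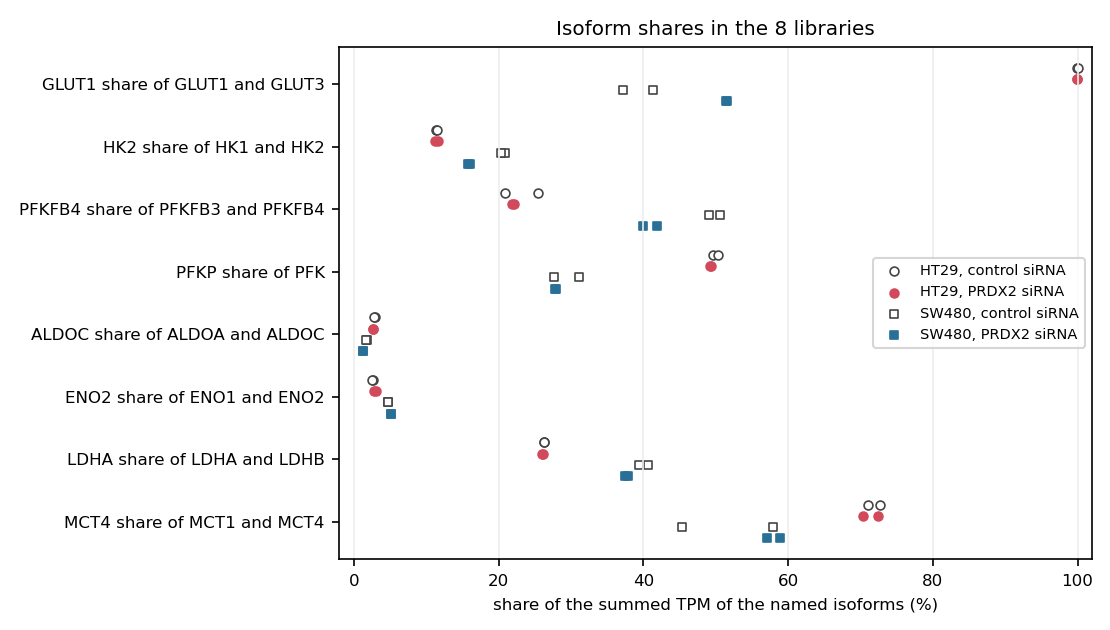
Share of 1 isoform in the summed TPM of the named isoforms of the same step (percent, horizontal axis) in each library, with open symbols for control siRNA, filled symbols for PRDX2 siRNA, circles for HT29 and squares for SW480. GLUT1, HK2, PFKP and LDHA shares separate the lines, and within SW480 the GLUT1 share is higher and the HK2 and PFKFB4 shares are lower with PRDX2 siRNA.

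Within SW480 the HK2 share of HK1 and HK2 went from 20.8% and 20.4% to 15.7% and 16.1%, and the PFKFB4 share of PFKFB3 and PFKFB4 from 49.0% and 50.6% to 42.0% and 40.0%. The MCT4 share of MCT1 and MCT4 was 45.4% and 57.9% in the 2 control libraries, so that its 57.0% and 58.8% with PRDX2 siRNA did not stand apart from control library 2. In HT29 the HK2 share was 11.4% and 11.5% and then 11.3% and 11.6%.

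The HIF subunit genes HIF1A, EPAS1 and ARNT and the gene VHL did not pass the test in either line. HIF1A, the oxygen-labile HIF subunit, read 121 and 109 and then 130 and 120 CPM in HT29 (0.12, SE 0.06) and 208 and 188 and then 193 and 189 CPM in SW480 (-0.05, SE 0.11). EPAS1, which encodes the related HIF-2 alpha, ARNT, their common partner, and VHL lay between -0.09 and 0.13 in both lines. Among 13 genes of the oxygen-sensing machinery tested in HT29, 1 rose with edgeR (against 7.76% of all genes), the coactivator EP300 (0.28, SE 0.05). DESeq2 called 1 higher there and limma 2 higher. In SW480, 0 of 14 passed with edgeR (against 3.30% of all genes), and 0 passed with DESeq2 or limma. At an unadjusted p under 0.05 there were 7 with edgeR, 5 higher and 2 lower. The share of all genes at that threshold is not given here, and the 7 are not read as a result. Of all genes, DESeq2 called 6.72% in HT29 and 4.86% in SW480 in either direction. Limma at a pseudocount of 1 called 13.9% and 1.52%.

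Of 30 further hypoxia-responsive genes tested in HT29, 3 rose (against 7.76% of all genes) and 4 fell (against 9.82%), shares near those of all genes. DESeq2 called 2 higher and 2 lower, and limma 3 higher and 1 lower. VEGFA, the angiogenic growth factor, went from 162 and 163 to 239 and 215 CPM (0.48, SE 0.05), DDIT4, an inhibitor of mTORC1 signalling, from 259 and 254 to 389 and 387 CPM (0.60, SE 0.03), and the lipoprotein receptor gene VLDLR by 0.43 (SE 0.13). The 4 that fell were BHLHE41 (-0.28, SE 0.04), CA12 (-0.20, SE 0.04), AK4 and ERO1L. In SW480, 2 of 36 rose (against 1.22% of all genes) and 3 fell (against 2.08%) with edgeR. DESeq2 called 2 higher and 2 lower, while limma at a pseudocount of 1 called 2 higher and 0 lower. PLOD2, a collagen lysyl hydroxylase, went from 11.9 and 10.1 to 4.52 and 5.36 CPM (-1.15, SE 0.20, adjusted p = 0.0249 with edgeR). TMEM45A was at -0.94 (SE 0.20), while STC2 rose (0.50, SE 0.10). ERO1L, an oxidase of protein folding, was at -0.75 (SE 0.17). Its control libraries stood far apart at 153 and 104 CPM, against 75.7 and 77.0 CPM with PRDX2 siRNA. VEGFA did not pass in SW480 (0.14, SE 0.19).

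The glucose-responsive arrestins, 2 genes, both rose in HT29 (against 7.76% of all genes). TXNIP and ARRDC4 encode arrestins that are induced by sugar phosphates through MondoA and limit glucose uptake, and TXNIP also binds thioredoxin. TXNIP went from 513 and 515 CPM with control siRNA to 848 and 861 CPM with PRDX2 siRNA (0.73, SE 0.02, adjusted p = 8.75e-13 with edgeR), and ARRDC4 from 36.0 and 37.1 to 61.7 and 65.4 CPM (0.80, SE 0.07). In SW480, TXNIP read 167 and 136 and then 180 and 180 CPM (0.25, SE 0.12, adjusted p = 0.25 with edgeR), and 0 of the 2 genes passed there, also at an unadjusted p under 0.05 and with DESeq2 or limma.

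Of 18 other glycolytic enzymes and isoforms tested in HT29, 1 rose and 5 fell with edgeR (against 7.76% and 9.82% of all genes). DESeq2 called 1 higher and 1 lower, and limma 2 higher and 0 lower, where edgeR had 5 lower at an unadjusted p under 0.05. The hexokinase-like HKDC1 rose (0.35, SE 0.06), and the transporter genes SLC2A12 (-0.52, SE 0.10), SLC2A10 (-0.46, SE 0.13) and SLC16A7 (-0.42, SE 0.09), the MCT chaperone BSG and the phosphoglucomutase PGM1 fell. Among 13 genes of pyruvate entry into mitochondria, 1 rose and 0 fell (against 7.76% and 9.82% of all genes), so that the rises were near the share of all genes. PDK4, like PDK1 a kinase of pyruvate dehydrogenase, went from 10.5 and 11.6 to 14.2 and 14.9 CPM (0.40, SE 0.13). In the pentose phosphate pathway, 2 of 8 genes were called (against 17.6% of all genes), among them PGD, an NADPH-making enzyme gene, which rose (0.16, SE 0.04). In gluconeogenesis, PCK2 rose (0.46, SE 0.05) and FBP1 fell (-0.26, SE 0.05) of 3 tested (against 7.76% and 9.82% of all genes). DESeq2 called 0 genes of pyruvate entry, 0 of the pentose phosphate pathway and 1 of gluconeogenesis, which was higher. In the same order, limma at a pseudocount of 1 called 2, 1 and 2 higher and 0, 0 and 1 lower. In SW480, 0 of 19, 0 of 13, 0 of 8 and 0 of 3 genes of these lists passed the test with edgeR. Of all genes, 3.30% passed there. At an unadjusted p under 0.05 there were 5, 3, 3 and 1. The share of all genes at that threshold is not given, and these counts are not read as a result. DESeq2 called 1 gene of pyruvate entry and 1 of gluconeogenesis, and limma called 0.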

How the data were processed

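Messenger RNA (TruSeq v2, a kit that does not mark strand) was measured in 8 libraries, grouped by the sample labels. The reads were mapped to hg19 with MapSplice by the authors, who deposited RSEM's expected count, TPM and FPKM per refGene symbol. The methods state this for HT29, and the SW480 values have the same form. Expected counts need not be whole (3.00% of values were not in HT29 control library 1) and were rounded here. Levels and shares use the TPM that the authors deposited, and the deposited FPKM was not used.

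A gene was tested when 2 or more libraries had 10 or more counts, with edgeR 4.0.16 (quasi-likelihood F test, TMM, Benjamini-Hochberg adjustment over all genes tested, threshold 0.05), within each line, between control groups and for the difference of effects over all 8 libraries. Intervals of 95% use the t quantile. Alternatives were RLE normalization, no filter, a robust prior, 1 fit of all libraries, a replicate block, a loess GC correction (span 0.5), each library left out, DESeq2 1.42.0, and limma 3.58.1 with pseudocounts of 1 and 0.1 on the log2 TPM scale. Transcript GC content (GENCODE, GRCh37) was found for 89.5% of symbols and all members. Scripts were tested on simulated counts.

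Members and lists were chosen with earlier results of these data known. Values are given for members with an adjusted p under 0.05, or with an effect over 0.25 (log2) and groups that did not overlap. From each other list and line the largest changes were named, at most 4, among genes that passed the test and averaged 5 CPM or more. Other genes were named after their values were seen. Some genes of these lists are not reported here. Replicate numbers did not mark a shared culture in the labels (correlation of same-numbered deviations 0.10 in HT29, 0.11 in SW480 and 0.08 between control groups).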

Additional observations from a re-analysis of the deposited data

Results flagged for a closer look

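The fitted effect of PRDX2 siRNA on SLC2A3 differed between lines by 4.21 on the log2 scale (HT29 minus SW480). The HT29 side of this value is 1 and 0 counts with control siRNA against 4 and 7 counts with PRDX2 siRNA, too few to be tested in that line, and the SW480 side is the fall from 18716 and 19373 to 9963 and 9882 expected counts. SLC2A3 passed the count filter only through SW480, so the value is given as a description and its p is left out. The call was lost with DESeq2, with limma on log2(TPM + 0.1), and on leaving out any HT29 library or any SW480 siPrdx2 library.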

How the results depend on the processing

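Directions were compared for the members that passed the test or had an effect over 0.25 with groups that did not overlap, for PRDX2 and, in HT29, for TXNIP. Of these, 14 of 14 genes in HT29, 16 of 16 in SW480, 22 of 22 between control groups and 1 of 1 for the difference of effects kept their sign. Other members named with SW480 values did not, among them PKM (0.07, and -0.06 with the GC correction), ALDOA (-0.04, and 0.13 without control library 2) and TPI1 (-0.05, and 0.08 without it). The number of HT29 members called was 12, 1 when all 8 libraries shared a fit (GAPDH, adjusted p = 0.0270 with edgeR), 8 with DESeq2 (ALDOC, TPI1, CA9 and PDK1 lost) or limma (TPI1, PGK1, ENO1, CA9 and PDK1 lost, 1 other gained), and 7 to 11 with a library left out. The number of SW480 members called was 3, and it was 15 in the fit of all 8 libraries, 16 with the GC correction, 1 with limma at either pseudocount (SLC2A3), and 1 to 25 with a library left out. The difference between lines was called for 1 member, for 8 with the GC correction, for 0 with DESeq2 and with limma on log2(TPM + 0.1), and for 0 to 22 with a library left out. Between control groups 22 members were called, and 14 to 28 with a library left out. The share of all genes called moved too. In HT29 it was 17.6%, 1.25% in the fit of all 8 libraries, 6.72% with DESeq2 and 13.9% with limma at a pseudocount of 1. In SW480 it was 3.30%, 16.3% in the fit of all 8 libraries, 17.0% with the GC correction and 1.52% with the same limma fit. For the difference it was 1.12%, 7.11% with the GC correction, 2.11% with DESeq2 and 0.29% with limma on log2(TPM + 0.1). It also moved with a library left out. The causes of these shifts were not tested.

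With the replicate number as a block, 14 HT29 members, 10 SW480 members, 1 difference and 22 control differences were called. Of all genes, 22.3%, 12.2%, 1.33% and 70.0% were called in these fits. With the block and the GC correction, 15, 16, 6 and 26 were called, against 24.6%, 21.8%, 6.68% and 78.9% of all genes. The replicate numbers alone do not pair the libraries.

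On the TPM scale the median of all genes between control groups was -0.15 to -0.16 instead of -0.04, and HK1 and ALDOA lost their calls there. In the simulations edgeR recovered 99% of changes of 1 on the log2 scale in HT29 and 93% in SW480, and 7.25% and 2.44% of all calls were false. Changes of 0.5 were recovered in 80% and 27%, so that SW480 effects of that size were often not detectable at its spread between duplicates.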
